A study of Oryza sativa with 39 samples.

Results

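T1C-19 is a genetically engineered (GE) line of XI (indica-type) rice, Oryza sativa, and MH63 is the untransformed XI line it was made from. The comparison T1C-19/MH63 used 6 of the 39 libraries of the series, 3 of each line, all 6 being those that carry these line names in their labels. T1C-19 carries a synthetic cry1C gene behind the maize ubiquitin promoter, introduced with Agrobacterium, whereas MH63, an elite restorer line obtained by conventional breeding, carries no transgene. Plants of both lines were tillering, 5 weeks after they had been transplanted from 1 week on germination medium. Each library came from leaf blade pieces pooled from 5 plants. The other 5 XI lines (HH1, a GE line also made from MH63, and XIY63, XXY63, SY63 and JY63, bred from crosses with MH63) and 6 GJ (japonica-type) lines are given beside the pair, with 3 libraries each. T1C-19 is 1 transformed line, so that what belongs to the transgene and what belongs to the line cannot be told apart.

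Cry1C is an insecticidal crystal protein of Bacillus thuringiensis, and the maize ubiquitin promoter drives expression in most tissues of a grass. The question asked of a GE line and its parent is which endogenous genes differ in expression besides the gene that was introduced. An identifier such as OS08G0236800 is a locus of the rice reference annotation, in which the digits before the G give the chromosome and those after it rise along the chromosome, so that close numbers are neighbouring loci. The reference is a GJ genome, and reads of XI lines were aligned to it.

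The files pair the loci with no gene names or products, and 0 of the called loci matched the reference gene table used here. Loci are therefore given by identifier, pathways could not be counted, and the leaf origin of the libraries could not be checked against named markers. The cry1C transgene is not among the loci read here, so that the label of T1C-19 could not be checked by it. Expression was given as FPKM, the fragments of a gene scaled to its length and to a read total of the library. In the deposited values that total was proportional to a median-of-ratios size factor, not to the reads on genes. A size factor of a library is the median ratio of its reads to the geometric mean over libraries, for genes read in every library. From the steps between FPKM values, 5832845 to 6351533 reads on genes were recovered for the T1C-19 libraries and 6463012 to 8318607 for the MH63 libraries. The study reports more clean reads per library than this.

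More genes were upregulated than downregulated in T1C-19. Of 20619 genes tested, 452 were differentially expressed genes (DEGs), or 2.19%, with 372 upregulated (1.8%) and 80 downregulated (0.388%). A gene was called where the adjusted p was below 0.05 and mean log2(FPKM + 1) differed by at least 1 between the lines. That difference is about 2-fold in FPKM for abundant genes and more for weakly expressed ones. Among 11320 tested reference loci, 218 were DEGs (1.93%), of which 172 were upregulated (1.52%) and 46 downregulated (0.406%). The remaining DEGs were 213 genes predicted outside the reference annotation (2.9% of those tested), 183 upregulated (2.49%) and 30 downregulated (0.409%), and 21 Ensembl Plants identifiers (1.08%). The median log2 fold change over all tested reference loci was 0.03. In all 218 called loci the 3 T1C-19 libraries lay wholly above or wholly below the 3 MH63 libraries, a separation seen in 28.0% of the tested reference loci. The number of calls depended on single libraries, since 67 reference loci were called without T1C-19 replicate 2, 74 without T1C-19 replicate 3 and 118 without MH63 replicate 3. Of the 218 loci, 46 (36 upregulated and 10 downregulated) were called under all 15 alternative settings, in which the tested genes were held when a library was left out. Among these settings, the one without a minimum fold change keeps every call by construction.

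All log2 fold changes are differences of log2(FPKM + 1), so that those of weakly expressed loci are understated. The upregulated loci had a median log2 fold change of 1.43, and 35 of 172 passed 2. The downregulated loci had a median of -1.32, and 5 of 46 passed -2. Of the upregulated loci, 58.7% had a mean below 10 FPKM in T1C-19, a share close to the 58.4% of all tested reference loci in their higher line. Of the downregulated loci, 34.8% had a mean below 10 FPKM in MH63 and 28.3% had at least 100 FPKM, against 12.8% of all tested reference loci with at least 100 FPKM. The median log2 fold change also differed with level, being -0.15 over the 1450 tested reference loci with at least 100 FPKM in the higher line and 0.07 over those below 10 FPKM. Its part in the split of the calls was not tested.

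**Figure D1:**
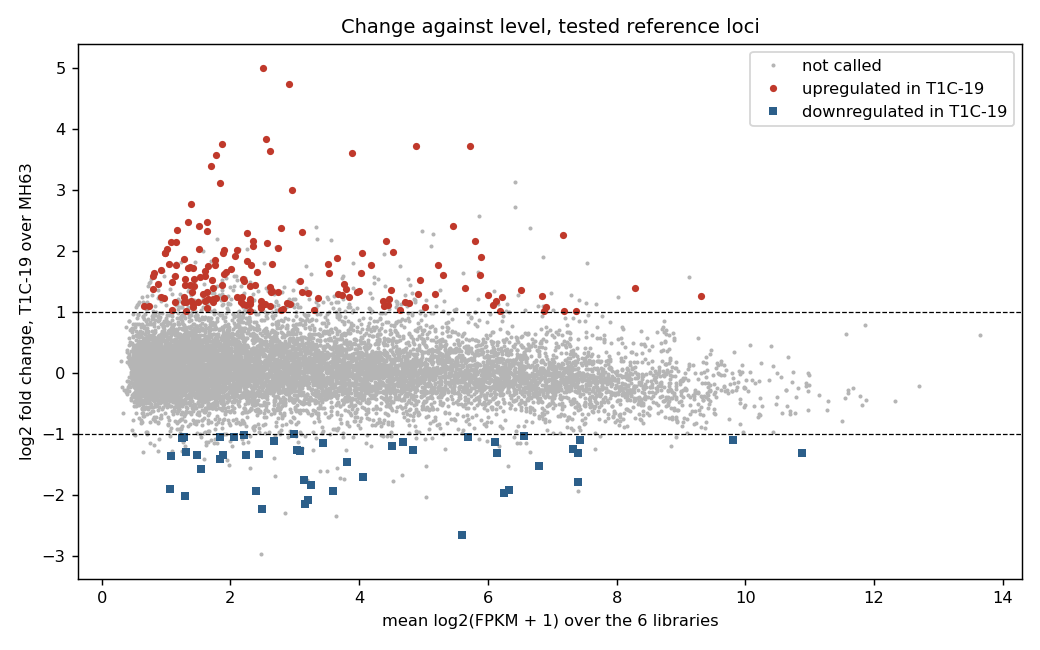
Log2 fold change of T1C-19 over MH63 (y axis) against the mean log2(FPKM + 1) of the 6 libraries (x axis) for the 11320 tested reference loci. Red circles are the 172 upregulated loci, blue squares the 46 downregulated ones and grey points loci not called. The dashed lines mark a log2 fold change of 1 in either direction, and the highest point is OS08G0236800 at 4.998.

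The largest increase was in OS08G0236800, on chromosome 8, which had 34.8, 30.5 and 27.9 FPKM in T1C-19 and 0 FPKM in every MH63 library. These values stood for 257, 228 and 213 reads in T1C-19 and none in MH63. Against 3 reads per MH63 library, the mean was at least 91.0-fold higher in T1C-19. The fitted log2 fold change was 4.998 ± 0.18 (SE; limma, adjusted p = 1.09e-05). The locus reached the test only through its 3 T1C-19 libraries. OS08G0236800 was read in the XI lines bred from crosses as well, at a mean of 24.5 FPKM in XIY63, 10.6 in XXY63, 11.6 in SY63 and 12.3 in JY63, but only at 0.485 FPKM in HH1. All 6 GJ lines had it, at line means of 39.8 to 67.8 FPKM.

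OS04G0510000, on chromosome 4, had 51.4, 31.6 and 33.2 FPKM in T1C-19, against 0.892, 0 and 0.621 FPKM in MH63. The lines were far apart, with a mean of 38.7 ± 10.99 FPKM in T1C-19 and 0.504 ± 0.457 FPKM in MH63 (SD, n = 3 each), a ratio of 76.7 that rests on 4, 0 and 3 reads in MH63. The log2 fold change was 4.74 ± 0.29 (SE; limma, adjusted p = 0.00013). OS04G0510000 also reached the test only through its T1C-19 libraries, so that its adjusted p is no separate support for a difference. The T1C-19 libraries were above all 18 other XI libraries, in which XIY63 averaged 14.6 and SY63 18.2 FPKM while XXY63 and JY63 had 0. All 18 GJ libraries had 0 FPKM.

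OS04G0415401, also on chromosome 4, had 19.7, 22.8 and 21.2 FPKM in T1C-19, against 2.71, 0 and 0 FPKM in MH63. Its MH63 reads were 35, 0 and 0, so that a single MH63 library carried the whole signal of that line. The log2 fold change was 3.84 ± 0.47 (SE; limma, adjusted p = 0.00517). Since OS04G0415401, too, reached the test only through its T1C-19 libraries, its adjusted p is no separate support for a difference. No other XI library exceeded 0.154 FPKM, whereas the GJ libraries lay between 6.08 and 10.95 FPKM. The adjusted p was 0.0517 in the fit without a filter on low values.

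The decreases were smaller. OS05G0567600, on chromosome 5, had 22.3, 14.5 and 18.7 FPKM in T1C-19, against 97.7, 150 and 121 FPKM in MH63. The mean was 6.65-fold lower in T1C-19, at 18.5 ± 3.90 FPKM and 123 ± 26.4 FPKM in MH63 (SD, n = 3 each), with a log2 fold change of -2.67 ± 0.21 (SE; limma, adjusted p = 0.000474). The locus varied widely among XI lines, with a mean of 308 FPKM in HH1 and 52.9 in XIY63, and the other XI libraries reached down to 16.4 FPKM.

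OS12G0493900, on chromosome 12, had 1.91, 1.88 and 1.03 FPKM in T1C-19, against 9.56, 13.1 and 11.1 FPKM in MH63, a log2 fold change of -2.24 ± 0.19 (SE; limma, adjusted p = 0.000788). The T1C-19 libraries were the lowest of all 21 XI libraries, the next being at 2.12 FPKM. OS04G0675400, on chromosome 4, had 4.11, 2.85 and 2.87 FPKM in T1C-19, against 24.2, 10.2 and 22.5 FPKM in MH63. T1C-19 was again below every other XI library, of which the lowest had 7.55 FPKM. Its log2 fold change was -2.15 ± 0.31 (SE; limma, adjusted p = 0.0109), and the call held in 4 of the 6 fits that left out a library.

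**Figure D2:**
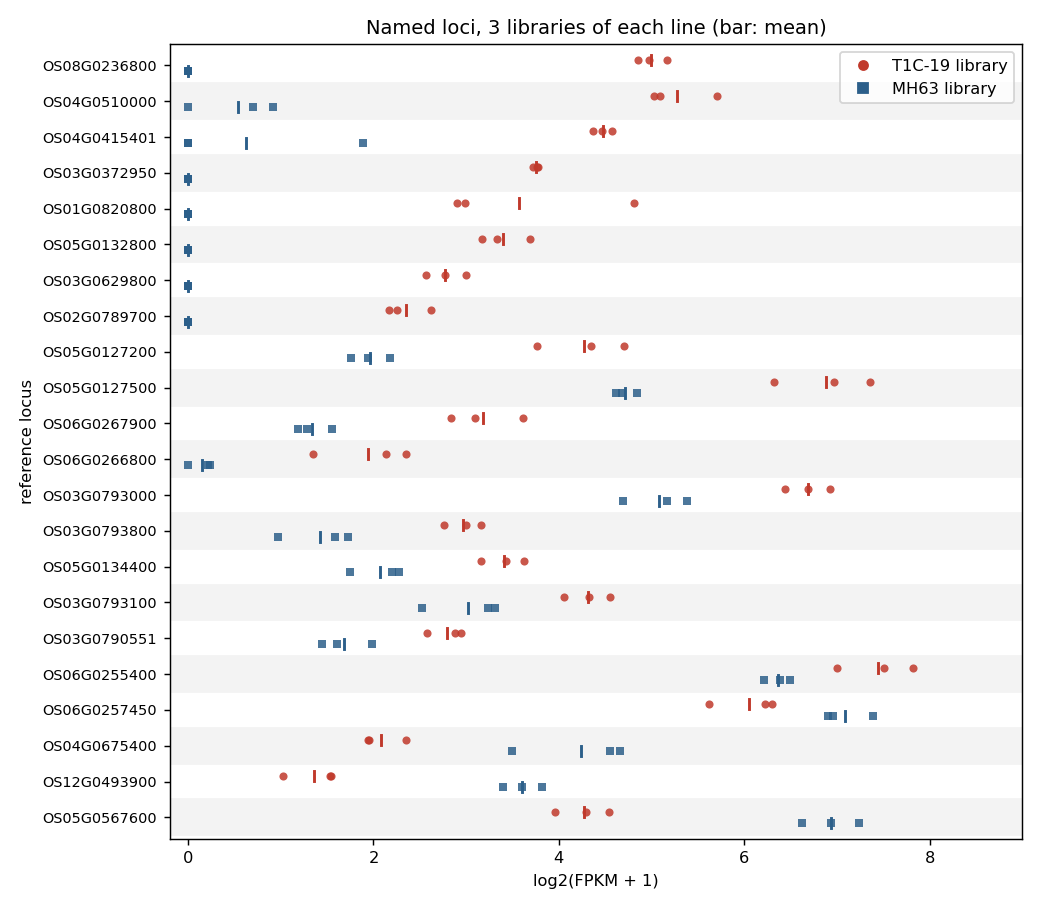
Expression, as log2(FPKM + 1) on the x axis, of the loci with the largest changes, those at 0 in MH63 and those in locus runs, with 1 locus per row ordered by fold change. Red circles are the 3 T1C-19 libraries, drawn above the blue squares of the 3 MH63 libraries, and short bars are means. In every row the libraries of the 2 lines do not overlap, from OS08G0236800 at the top, with 27.9 to 34.8 FPKM in T1C-19 and 0 in MH63, to OS05G0567600 at the bottom, with 14.5 to 22.3 and 97.7 to 150 FPKM.

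Some loci had reads in 1 of the lines only. At 0 in all MH63 libraries and above 0 in all T1C-19 libraries were 116 reference loci, of which 24 had a mean of at least 1 FPKM in T1C-19. Of the 24, 22 reached the test, which such loci enter only through T1C-19, and 12 were called. Because these loci were selected by the same values, the adjusted p given for any of them is no separate support for a difference. At 0 in all T1C-19 libraries and above 0 in all MH63 libraries were 64 loci, of which 3 had a mean of at least 1 FPKM in MH63 and 0 were called. T1C-19 replicate 3 had the most reference loci above 0 of the 6 libraries, 16353, and MH63 replicate 2 the fewest, 14906, and their part in these counts was not tested. Most of these loci were weakly read, with a median mean of 0.295 FPKM in T1C-19 for the 116 and of 0.185 FPKM in MH63 for the 64. The order of the counts rested on single libraries, since without MH63 replicate 2 there were 184 loci at 0 in T1C-19 and 158 at 0 in MH63. Leaving out a library gave 158 to 242 loci at 0 in MH63, over 1.5 times the count for each library except MH63 replicate 2, and 132 to 184 at 0 in T1C-19, over 1.5 times for each. Of those at 0 in MH63, 26 to 34 then had at least 1 FPKM in T1C-19, and allowing up to 3 reads per library in place of 0 gave 1039 loci in each direction, 138 of them shared.

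OS01G0820800, on chromosome 1, had 6.94, 6.49 and 27.0 FPKM in T1C-19 and 0 in MH63, with 58, 55 and 234 reads. Replicate 3 stood well above the others of its line. Against 3 reads per MH63 library the T1C-19 mean was at least 44.8-fold higher (log2 fold change of 3.57 ± 0.48, SE; limma, adjusted p = 0.00833). Without T1C-19 replicate 3 this bound was 22.3-fold, and in the fit without a filter on low values the adjusted p was 0.0609. Expression was uneven in the other XI lines, with means of 59.2 FPKM in SY63, 23.0 in XXY63, 20.9 in XIY63, 3.43 in JY63 and 0.0612 in HH1. Among GJ lines the mean was 0.0514 FPKM in CJ03 and 71.3 to 88.2 FPKM in the rest.

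OS03G0372950, on chromosome 3, had 12.6, 12.2 and 12.7 FPKM in T1C-19, from 45, 44 and 47 reads, and 0 in MH63. It was at 0 in all 15 libraries of the other 5 XI lines, and was read in all 18 GJ libraries at 13.1 to 32.0 FPKM. The T1C-19 mean was at least 17.7-fold higher than 3 reads per MH63 library (log2 fold change of 3.75 ± 0.22, SE; limma, adjusted p = 0.000114). OS05G0132800, on chromosome 5, was distributed similarly. It had 11.8, 8.03 and 9.05 FPKM in T1C-19 and 0 in MH63, at least 15.5-fold higher than 3 reads per library (adjusted p = 0.000371, limma). Of the other 15 XI libraries 1 had reads, at 0.274 FPKM, and the GJ line means ran from 2.20 FPKM in JH1 to 36.9 in XS11.

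OS03G0629800, on chromosome 3, had 4.90, 5.83 and 6.96 FPKM in T1C-19 and 0 in MH63, at least 16.2-fold higher than 3 reads per library (adjusted p = 0.000901, limma). Apart from T1C-19 it was read in 3 libraries of the series, all of KMD2, a GE line of the GJ line XS11, at a mean of 18.5 FPKM. OS02G0789700, on chromosome 2, had 5.16, 3.77 and 3.48 FPKM in T1C-19 from 123, 91 and 86 reads. It was at 0 in MH63 and in every library of the other XI and GJ lines, so that the T1C-19 mean was at least 39.2-fold higher than 3 reads per MH63 library (log2 fold change of 2.35 ± 0.22, SE; limma, adjusted p = 0.00114).

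The 24 loci fell into several overlapping patterns over the other lines. Of these, 9 were at 0 in all 15 libraries of the other XI lines, and 5 of the 9 were at 0 in all 18 GJ libraries too. Those 5 were OS02G0789700, OS01G0841450, OS01G0630900, OS04G0471100 and OS02G0200950, the last of which was not called. By contrast, 7 of the 24 had a mean of at least 1 FPKM in at least 1 other XI line. Some of the 9 were also among 6 loci with a mean of at least 1 FPKM in a GJ line and below 1 FPKM in all 5 other XI lines. Those 6 included OS01G0672600, with 1.74, 1.29 and 2.11 FPKM in T1C-19 and a mean of 234 FPKM in JH1. Locus OS01G0215100, chosen after its values were seen, had 2.89, 4.88 and 1.99 FPKM in T1C-19 and 0 in both MH63 and HH1, while the other XI lines averaged 14.2 to 28.8 FPKM.

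**Figure D3:**
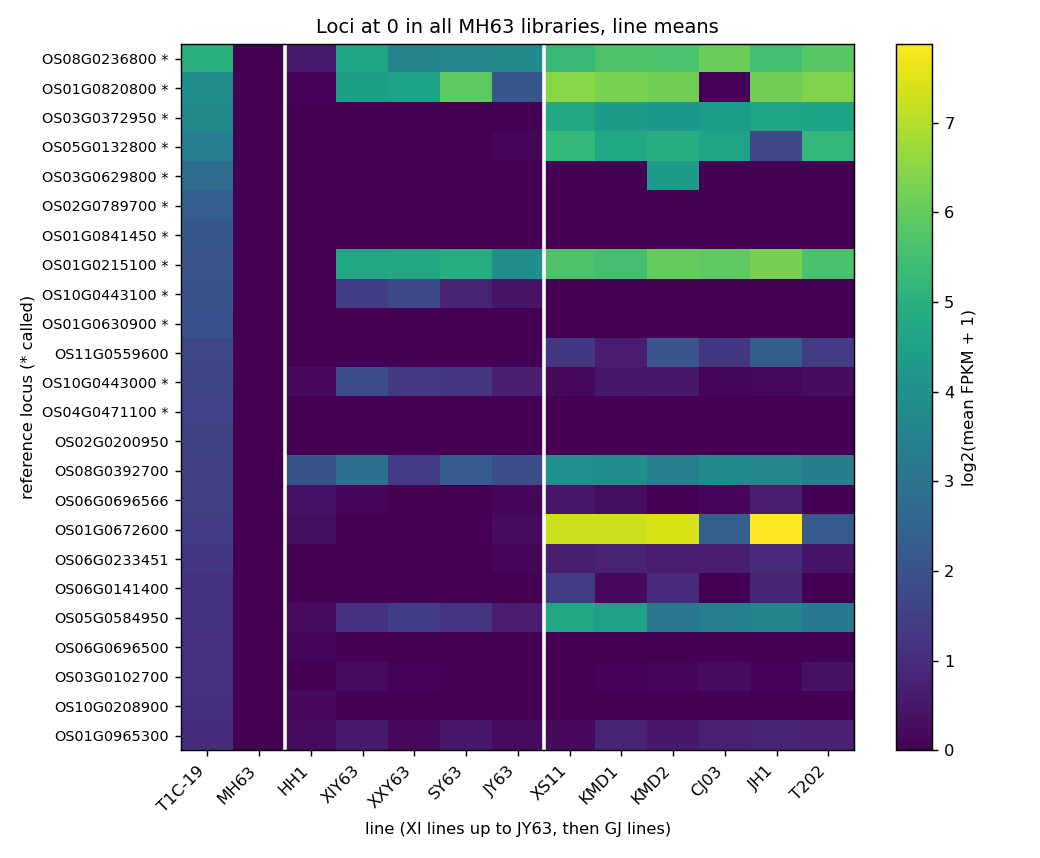
Line means, as log2(mean FPKM + 1) by colour, of the 24 reference loci at 0 in all MH63 libraries with a mean of at least 1 FPKM in T1C-19 (rows, an asterisk marking a call) in T1C-19, MH63, the other 5 XI lines and the 6 GJ lines (columns, parted by white lines). OS08G0236800 in the top row is bright in T1C-19, in 4 XI lines and in all GJ lines, whereas OS02G0789700 is above 0 in T1C-19 alone.

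Of the loci at 0 in T1C-19, the 6 with the highest MH63 mean were read thinly. OS04G0351933 had 0 FPKM in T1C-19 and 1.10, 3.65 and 0.510 FPKM in MH63, from 2, 5 and 1 reads. OS05G0311801 had 0 FPKM in T1C-19 and 1.04, 1.69 and 0.537 FPKM in MH63, from 9, 11 and 5 reads, and was not called (limma, adjusted p = 0.175). OS03G0145950, OS08G0360700, OS02G0737200 and OS10G0527601 had 1 to 8 reads in each MH63 library and none in T1C-19. No MH63 library held more than 11 reads for any of the 64 loci, while up to 257 reads were found in a T1C-19 library for the 116.

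Abundant loci were called in both directions. Of the 1450 tested reference loci with a mean of at least 100 FPKM in either line, 31 were called (2.14%), 18 upregulated and 13 downregulated; those named next were chosen after their values were seen. The most abundant called locus, OS03G0586500 on chromosome 3, had 1528, 1047 and 1061 FPKM in T1C-19, against 2929.5, 3516 and 2513 FPKM in MH63. The T1C-19 mean was lower by a factor of 2.46 (log2 fold change of -1.31 ± 0.19, SE; limma, adjusted p = 0.0112). OS05G0579600, on chromosome 5, averaged 622 ± 135 FPKM in T1C-19 and 1322 ± 99.9 FPKM in MH63 (SD, n = 3 each). OS01G0922700, on chromosome 1, had 46.9, 36.9 and 37.6 FPKM in T1C-19, against 153, 165 and 149 FPKM in MH63. The call held in all 6 fits that left out a library (log2 fold change of -1.93 ± 0.14, SE; limma, adjusted p = 0.000336), and no other XI library was below 118 FPKM.

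Among the upregulated abundant loci, OS03G0130300, on chromosome 3, had 199, 250 and 141 FPKM in T1C-19, against 31.8, 10.6 and 7.16 FPKM in MH63, an 11.9-fold higher mean that became 22.2-fold without MH63 replicate 1. Its call was lost without T1C-19 replicate 2 (limma, adjusted p = 0.0522) and without a filter on low values (0.0598). OS08G0389601, on chromosome 8, had 83.0, 101 and 142 FPKM in T1C-19, against 4.16, 6.75 and 12.4 FPKM in MH63, a 13.98-fold higher mean (log2 fold change of 3.72 ± 0.35, SE; limma, adjusted p = 0.00124). No library of the other XI lines exceeded 18.9 FPKM for it. OS12G0516000, on chromosome 12, had 388, 196 and 408 FPKM in T1C-19, against 81.1, 82.2 and 40.3 FPKM in MH63. Its level in the other XI libraries ranged from 18.9 to 1492 FPKM, a span that holds both lines. OS07G0615200, on chromosome 7, with 694, 1245 and 1085 FPKM in T1C-19 and 441, 437 and 351 FPKM in MH63, was called in 1 of the 6 fits that left out a library.

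**Figure D4:**
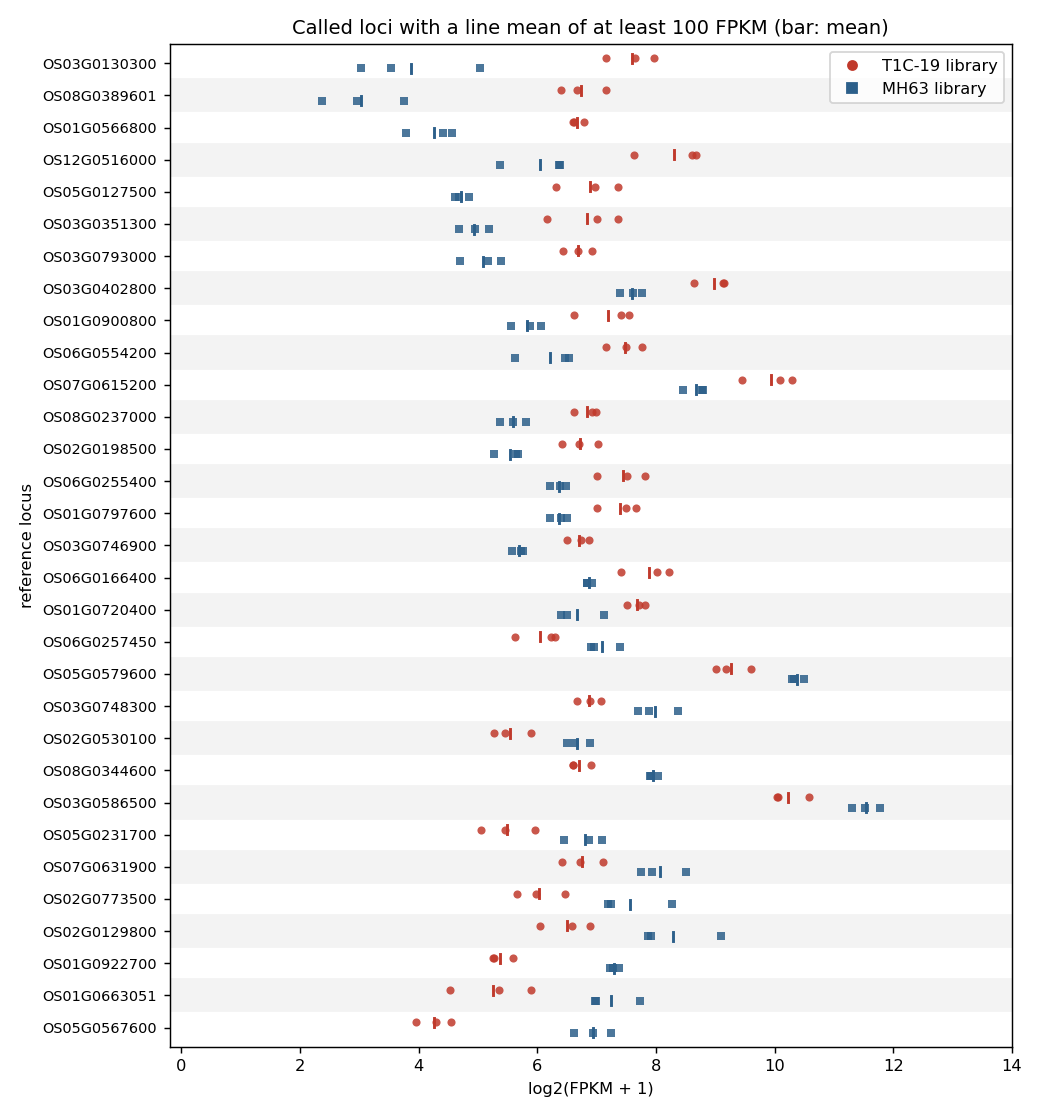
Expression, as log2(FPKM + 1) on the x axis, of the 31 called reference loci with a line mean of at least 100 FPKM, ordered by fold change. Red circles are T1C-19 libraries, drawn above the blue squares of MH63 libraries, and bars are means; the 18 upregulated loci are at the top, led by OS03G0130300 with 141 to 250 FPKM in T1C-19 and 7.16 to 31.8 FPKM in MH63, and the 13 downregulated ones end with OS05G0567600.

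Set among the 7 XI lines, the calls more often had T1C-19 than MH63 at the edge. Of the 172 upregulated loci, 55 had all T1C-19 libraries above all 18 other XI libraries, a position held by 1.79% of the tested reference loci. Of the 46 downregulated loci, 21 had all T1C-19 libraries below the other 18, against 2.05% of the tested reference loci. MH63 was below all other XI libraries in 3 of the upregulated loci (0.256% of the tested loci) and above them in 2 of the downregulated ones (0.274%). The remaining 137 called loci had both lines within the range of the other lines. The calls were made from the same 6 libraries, so that these counts are a description. An edge position was not particular to T1C-19. Over all tested reference loci, T1C-19 lay above all other XI libraries at 203 loci and below them at 232. The counts were 1084 and 531 for HH1 and 298 and 380 for XIY63, but only 17 to 47 in either direction for XXY63, SY63 and JY63.

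The loci with MH63 at the edge were few. OS03G0793000, on chromosome 3, had 85.8, 102 and 121 FPKM in T1C-19, against 35.0, 24.9 and 40.7 FPKM in MH63, while the other XI libraries lay between 67.1 and 155 FPKM. OS07G0179300, on chromosome 7, averaged 7.73 FPKM in T1C-19 and 22.7 FPKM in MH63, with no other XI library above 15.7 FPKM. OS01G0219300, OS11G0289700 and OS07G0677500 completed the set, all with a mean below 4 FPKM in both lines. Being 5 in number, they were named after their values were seen.

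Called loci lay on all 12 chromosomes. Chromosome 1 held the most, 35 upregulated and 4 downregulated among 1618 tested loci (2.41%), and chromosome 12 the fewest, 2 upregulated and 3 downregulated among 603 (0.829%). Chromosome 1 also had the most tested loci. The other chromosomes had between 1.64% and 2.30% of their tested loci called, against 1.93% of all tested reference loci. Upregulated loci outnumbered downregulated ones on each chromosome except 12. Windows of 20 consecutive tested loci with at least 4 calls formed 3 runs, each of 4 called loci, on chromosomes 3, 5 and 6. Windows of 10 loci with at least 3 calls gave 4 runs, on chromosomes 1, 3, 5 and 6. That on chromosome 1 joined OS01G0566701, OS01G0566800 and OS01G0571000, all upregulated.

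The run on chromosome 3 joined OS03G0790551, OS03G0793000, OS03G0793100 and OS03G0793800, all upregulated. OS03G0793100 had 15.6, 19.1 and 22.5 FPKM in T1C-19, against 8.39, 4.76 and 8.92 FPKM in MH63. OS03G0793800 had 5.77, 6.97 and 7.90 FPKM in T1C-19, against 2.30, 0.956 and 2.00 FPKM in MH63. OS03G0790551 was the weakest of the run, with a log2 fold change of 1.12 ± 0.19 (SE; limma, adjusted p = 0.0223). Of the 6 fits that left out a library, OS03G0793000 was called in 5, OS03G0793800 in 4, and OS03G0790551 and OS03G0793100 in 2 each.

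The run on chromosome 5 held OS05G0127200, OS05G0127500, OS05G0132800 and OS05G0134400, again all upregulated. OS05G0127200 had 12.6, 19.4 and 25.0 FPKM in T1C-19, against 3.52, 2.37 and 2.85 FPKM in MH63, a 6.53-fold higher mean. Its neighbour OS05G0127500 had 79.0, 163 and 125 FPKM in T1C-19, against 23.6, 24.6 and 27.7 FPKM in MH63. Both were called in all 6 fits that left out a library. OS05G0134400 had 7.96, 9.75 and 11.3 FPKM in T1C-19, against 3.86, 2.36 and 3.58 FPKM in MH63, and was called in 4 of those fits. OS05G0132800 is the locus without MH63 reads described above.

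The run on chromosome 6 was mixed. OS06G0255400, OS06G0266800 and OS06G0267900 were upregulated, and OS06G0257450 was downregulated, with 73.7, 77.7 and 48.2 FPKM in T1C-19 and 119, 167 and 123 FPKM in MH63 (limma, adjusted p = 0.049). OS06G0267900 had 11.2, 6.13 and 7.51 FPKM in T1C-19, against 1.43, 1.28 and 1.93 FPKM in MH63, and was called in all 6 fits that left out a library. OS06G0255400 and OS06G0266800 were called in 1 of these fits each and OS06G0257450 in 0. The runs rested on the full set of libraries, since leaving out 1 library gave 0 to 3 runs, with none without T1C-19 replicate 2 or T1C-19 replicate 3 and 1 without T1C-19 replicate 1, MH63 replicate 1 or MH63 replicate 3.

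**Figure D5:**
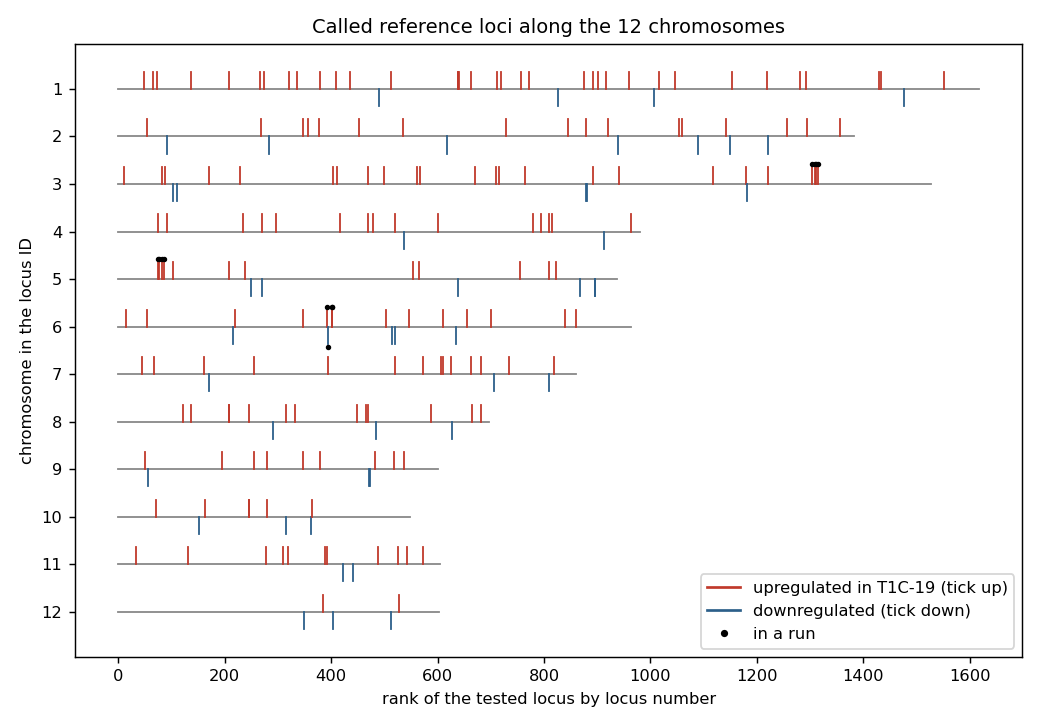
Position of the 218 called reference loci by rank of locus number (x axis) among the tested loci of each of the 12 chromosomes (y axis). Red ticks upward are upregulated and blue ticks downward are downregulated in T1C-19, and black dots mark the 12 loci of the 3 runs on chromosomes 3, 5 and 6.

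Some called loci were direct neighbours among the tested loci. There were 9 such pairs, and in 8 of them both members changed in the same direction. Of all called reference loci 78.9% were upregulated, so that a shared direction is common among them wherever they lie. Whether neighbours shared it more often was not tested. OS08G0237000, next to OS08G0236800, had 97.4, 125 and 120 FPKM in T1C-19, against 55.3, 40.6 and 47.3 FPKM in MH63. OS01G0566701 had 30.9, 32.3 and 32.1 FPKM in T1C-19, against 4.41, 12.2 and 7.16 FPKM in MH63, and the next locus, OS01G0566800, had 96.6, 110 and 96.5 FPKM in T1C-19, against 12.8, 22.7 and 20.2 FPKM in MH63. For both, the T1C-19 libraries were above all other XI libraries.

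Among the downregulated pairs, OS03G0586400 had 3.13, 1.82 and 2.43 FPKM in T1C-19, against 7.14, 8.05 and 7.79 FPKM in MH63, beside the abundant OS03G0586500. OS05G0579700 had 7.94, 6.79 and 10.4 FPKM in T1C-19, against 33.4, 22.7 and 33.4 FPKM in MH63, beside OS05G0579600. The pair OS10G0443000 and OS10G0443100 was read in T1C-19 and at 0 in MH63, with 7 to 9 and 6 to 14 reads per T1C-19 library, and both were called in 0 of the 6 fits that left out a library. OS03G0746900 and OS03G0748300 changed in opposite directions, with means of 104 and 117 FPKM in T1C-19 and 50.5 and 257 FPKM in MH63. How strand entered the counting is not given in the sources used here, so that reads of overlapping neighbours cannot be told apart, and in leaf tissue fewer cells of a type and less RNA per cell cannot be told apart either.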

How the data were processed

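RNA was extracted from pooled rice leaves and sequenced. According to the submitters' processing notes, HISAT2 (version 2.09) aligned reads to IRGSP-1.0 and featureCounts (version 1.5.0-p3) counted them. The authors deposited FPKM per gene and library, with line labels giving the groups. Whole reads were recovered from the steps between FPKM values, and 99.9997% of values were whole within 0.01 read. The T1C-19/MH63 test was limma (version 3.58.1, R 4.3.3) applied to log2(FPKM + 1) of the genes that reached 0.5 FPKM in at least 3 of the 6 libraries, with a variance trend over mean log2(reads + 0.5) and Benjamini-Hochberg adjustment over all genes tested. DEGs met an adjusted p below 0.05 and a difference of at least 1 in mean log2(FPKM + 1). The fit was also run on simulated data that gave all genes the same dispersion and changed only well-read genes. How well it recovers weakly read loci was therefore not tested. The study tested counts, whereas FPKM was tested here.

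Named loci were the 3 with the largest change in each direction, the 6 at 0 in each line with the highest mean in the other, and the members of runs, unless said otherwise. Lists of pathway genes and tissue markers could not be applied, since no product names were paired with the loci, and are not used. The loci and tests were chosen with earlier results of these data known. The trend offset, and holding the tested genes when a library was left out, were chosen after the counts from other versions had been seen, to match an earlier processing. The reads on genes recovered from FPKM were 5832845 to 8318607 per library, fewer than the clean reads per library that the study reports. Why they were fewer was not examined. Counting error alone underlies the lower bounds, which set 3 reads per library. Alternatives covered pseudocount, filters, scaling, trend, voom, the 7 XI lines, a replicate block, libraries left out and the fold threshold. No sequences were printed.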

Additional observations from a re-analysis of the deposited data

How the results depend on the processing

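The direction of every named called locus was the same under all alternatives that gave a value. Without a filter on low FPKM there were 301 DEGs, 42 of them downregulated and 88 reference loci. Voom on recovered reads gave 129 downregulated DEGs and 354 reference-locus DEGs, and dropping the minimum fold change gave 150 downregulated DEGs. The number of locus runs was 5 with a pseudocount of 0.1, 0 without the filter, 1 with limma's default trend, 8 with voom and 5 without a minimum fold change. With at most 3 reads allowed, 1039 loci were near 0 in MH63 and 1039 in T1C-19.

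Leaving out a library gave 215 to 453 DEGs, 191 to 378 upregulated, 24 to 81 downregulated, 67 to 210 at reference loci and 0 to 3 runs, with 158 to 242 loci at 0 in MH63 (26 to 34 with at least 1 FPKM in T1C-19) and 132 to 184 at 0 in T1C-19. The next 2 choices were examined after their counts were known. Reapplying the filter to the remaining 5 libraries, which by construction drops loci read in T1C-19 alone when a T1C-19 library is missing, gave 68 to 465 DEGs, 56 to 391 upregulated, 12 to 74 downregulated, 33 to 225 at reference loci and 0 to 3 runs. A trend offset of 1 read gave 460 DEGs and a trend over the log2 mean reads 490, against 452 with the offset used.

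Replicate numbers did not pair the libraries, since deviations of same-numbered libraries correlated between -0.02 and 0.07 across genes and 2 of 6 libraries correlated best with their own number. With the replicate block there were 361 DEGs, 49 of them downregulated, 172 at reference loci, and 1 run. Plain read totals moved the median log2 fold change of all genes to 0.07, against 0.02. Loci at 0 in 1 line mostly had few reads in the other.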

Other observations

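Loci read in only 1 of the 7 XI lines were counted over all reference loci, as those with a mean of at least 1 FPKM, above 0 in all 3 libraries of the line and at 0 in the other 18 XI libraries. T1C-19 had 9 such loci, XIY63 9, JY63 8, SY63 4, XXY63 1, and HH1 and MH63 0 each. Besides the 5 loci without reads in GJ lines, those of T1C-19 were OS03G0372950, OS03G0629800, OS06G0141400 and OS11G0559600. OS11G0559600 had 3.98, 2.06 and 0.853 FPKM in T1C-19 and was read in all 18 GJ libraries, and was not called (limma, adjusted p = 0.0705).

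Loci at 0 in T1C-19 alone and above 0 in the other 18 XI libraries numbered 0, against 2 for MH63, 1 for XXY63, 1 for SY63, 2 for JY63, 25 for HH1 and 39 for XIY63.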
